A study of Mus musculus with 40 samples.

Results

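The data compared here were 6 of 40 arrays of mouse dorsal root ganglia, the clusters of sensory neuron cell bodies beside the spinal cord: 3 taken 16 h and 3 taken 1 day after spared nerve injury. The arrays were chosen by their titles alone. All mice were male C57BL/6J animals, 9 to 10 weeks old, with no other genotype or agent named, and the ganglia of both groups came from injured animals, so the comparison follows an injury response already under way rather than its onset. In this surgery 2 branches of the sciatic nerve, the tibial and the common peroneal, are ligated and cut while the sural branch is spared. The whole series holds 7 naive arrays and 12 times from 8 h to 10 days, and its design set expression beside pain behaviour, which was not used here. Total RNA was read on Illumina bead arrays, which give a fluorescence signal for each probe. Whether an array stands for 1 mouse or a pool is not stated in the labels, nor is the clock time of surgery or collection. The p-values rest on the spread within groups over all 40 arrays, part of which may be technical.

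Sensory neurons answer a cut axon with a transcriptional programme in stages: transcription factors such as Atf3 come early, and neuropeptides, receptors and growth-associated proteins follow. Most cells also carry a circadian clock, in which the CLOCK and BMAL1 proteins switch on Per, Cry, Nr1d and Dbp genes whose products later shut them off or pass the rhythm on. RNA levels of such output genes can swing several-fold within a day in animals that have not been operated on.

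Values below are log2 signals after background correction and quantile normalization, on which a difference of 1 is a doubling; a difference is always 1 day minus 16 h. A level of 6.85 marks the edge of detection. The 7 defining sensory neuron markers, among them Avil, Prph, Isl1 and Scn10a, were above it on 6 of 6 arrays, with Avil between 13.48 and 13.93 and Tubb3, the dimmest, between 7.00 and 7.36. Median raw signals of the 6 arrays lay between 174 and 212.6 intensity units.

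The 6 arrays did not fall into their 2 groups along the strongest pattern among them. The axis that held 59.3% of their variance placed 16 h replicates 1 and 2 at 0.218 and 0.195 and 1 day replicate 1 at 0.120, and on its other side 16 h replicate 3 at -0.216 and 1 day replicates 2 and 3 at -0.115 and -0.202. Over genes, 16 h replicate 3 correlated at 0.990 with 1 day replicate 3 and at 0.969 with 16 h replicate 1. Skeletal muscle markers also differed between arrays: the summed signal of the 17 measured of 17 on the array was 18678, 8907 and 9403 at 16 h and 22074, 23280 and 10362 at 1 day. It was high on 1 of the 3 arrays at 16 h and 2 of the 3 at 1 day, and in naive arrays it ran from 8234 to 26205. Pvalb of this list also stands among the large-fibre neuron markers, so the sum need not be muscle RNA alone. Myh1 and Myh4, myosin heavy chains of fast muscle fibres, were below detection on all 3 arrays at 16 h. What part the axis or muscle RNA plays in the results below was not tested, and the axis itself was not used as a covariate. Values without single arrays or with the mean of the muscle markers as a covariate stand beside some of the results they change. A component of unchanged genes was another covariate, and the genes it brought past the threshold are named later, where dependence on the processing is described.

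**Figure D1:**
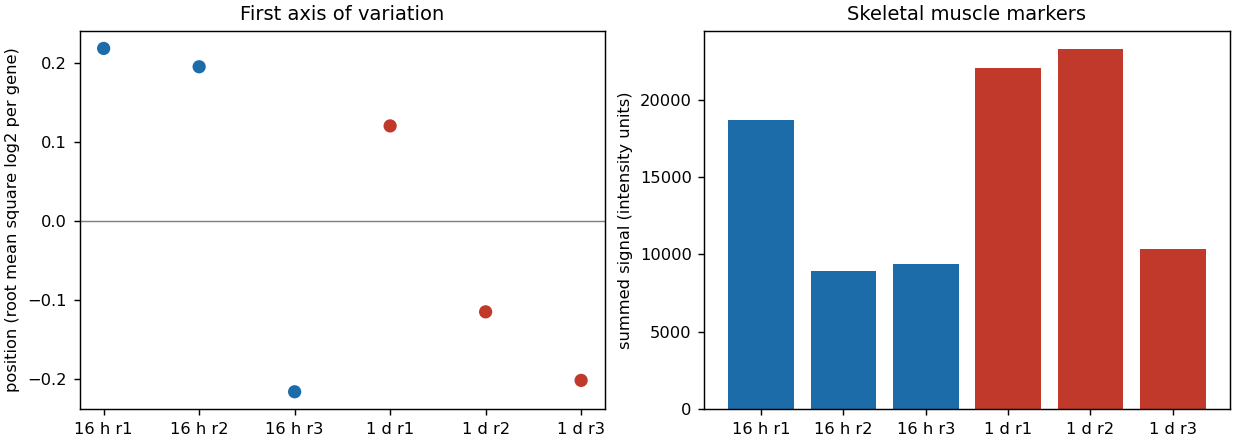
Left, position of each of the 6 arrays on the axis that holds 59.3% of their variance, in root mean square log2 units per gene; right, summed signal of the 17 skeletal muscle markers in intensity units (blue, 16 h; red, 1 day; r, replicate). The axis sets 16 h replicate 3 beside 1 day replicates 2 and 3, and the muscle sum runs from 8907 to 23280.

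Between 16 h and 1 day, 6 of 10519 genes rose and none fell (limma, Benjamini-Hochberg adjusted p under 0.05; 0.057% of genes). They were Dbp and Ciart of the circadian clock, the neuropeptide gene Gal, the orphan receptor gene Gpr151, the taurine transporter gene Slc6a6 and Tmem43, which encodes a protein of the inner nuclear membrane. No gene passed in the lower direction by this fit, while 428 genes were lower at an unadjusted p under 0.05 (4.07%) and 400 were higher (3.8%). The median difference of all genes was 0.00, the 5th and 95th percentiles were -0.31 and 0.38, and the median standard error was 0.15. A difference of more than 1 was seen in 17 genes, all higher at 1 day, of which 8 were skeletal muscle markers with standard errors of 0.88 to 1.51. Single arrays moved the count: 2 genes passed without 16 h replicate 3, 3 without 1 day replicate 2 or 3, and 15 without 1 day replicate 1, where 11 were higher and 4 lower. Those gained in this last fit included Msh6, Npy, Tubb6 and Kcnmb4 (higher) and Ttc4, Sgsm1 and Bhlha9 (lower), at an adjusted p from 0.0074 to 0.039. Without 16 h replicate 1, Msh6 and Adcyap1 passed (both adjusted p = 0.0436). In a fit on the 6 arrays alone 1 gene passed, Dbp. With robust variances and array weights 839 genes passed as higher and 772 as lower.

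**Figure D2:**
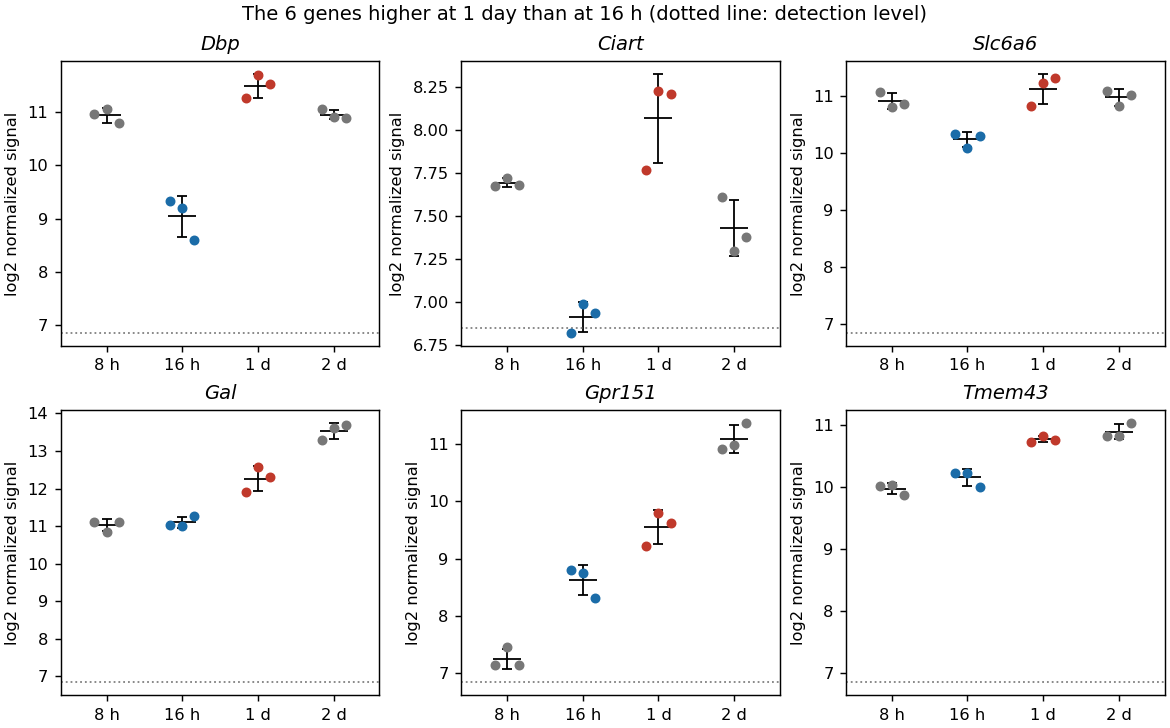
Log2 normalized signal of the 6 genes that rose from 16 h (blue) to 1 day (red), with the groups before and after in grey; points are arrays, bars the mean ± SD (n = 3), the dotted line the detection level of 6.85, and panels differ in scale. Every 1 day array lies above every 16 h array in all 6 panels.

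The largest rise past the threshold was that of a clock gene. Dbp, a transcription factor that carries the rhythm of the core clock to its target genes, read 9.33, 9.19 and 8.61 on the 3 arrays at 16 h and 11.26, 11.70 and 11.52 on the 3 at 1 day. All 3 arrays at 1 day were far above all 3 at 16 h. Dbp rose by 2.45 ± 0.28 (SE), or 5.48-fold, with an adjusted p of 4.28e-06. It passed in each of the 20 alternative analyses, at 2.24 to 2.60.

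Ciart, which encodes a repressor of the CLOCK and BMAL1 pair, read 6.82, 6.99 and 6.93 at 16 h, at the edge of detection, and 7.77, 8.22 and 8.21 at 1 day. The groups did not overlap, and 2 of 3 arrays at 16 h were above the detection level. Ciart rose by 1.15 ± 0.20 (adjusted p = 0.00708), while its other probe averaged 6.43 at 16 h, below the detection level, and 7.45 at 1 day. The size of this rise depended on the background correction, since it was 0.46 with the neqc method, and the adjusted p was 0.0543 without 16 h replicate 1, 0.0604 without 16 h replicate 3, 0.133 without 1 day replicate 2, 0.12 without 1 day replicate 3 and 0.381 in a fit on the 6 arrays alone.

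The level at 16 h was among the lowest of the series for both genes, and the level at 1 day was high but not alone in that. Dbp had its lowest mean of all 13 groups at 16 h (9.04 ± 0.39 SD, n = 3) and its highest at 1 day (11.50 ± 0.22), while the 7 naive arrays ran from 10.74 through a median of 10.82 to 11.24 and the 8 h arrays from 10.80 to 11.07. Against naive, Dbp differed by -1.87 at 16 h (adjusted p = 4.46e-06) and by 0.59 at 1 day (adjusted p = 0.28). At later times Dbp was as high at 6 days (11.44 to 11.52) and 7 days (11.30 to 11.64), within the range of the 1 day arrays, and low at 8 days (9.36 to 10.00), while its 3 day arrays ran from 9.56 to 11.16. Ciart likewise had its highest group mean at 1 day, but its lowest 1 day array (7.77) lay within the ranges of the naive arrays (7.05 to 7.80) and the 7 day arrays (7.36 to 7.95), and its 6 day arrays read 7.84 to 7.99. At 8 days its 3 arrays read 6.89 to 6.92, its lowest group mean. Because 16 h and 24 h after surgery differ by 8 h in whatever clock time the surgery was done, hours after injury and time of day cannot be told apart in this step.

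**Figure D3:**
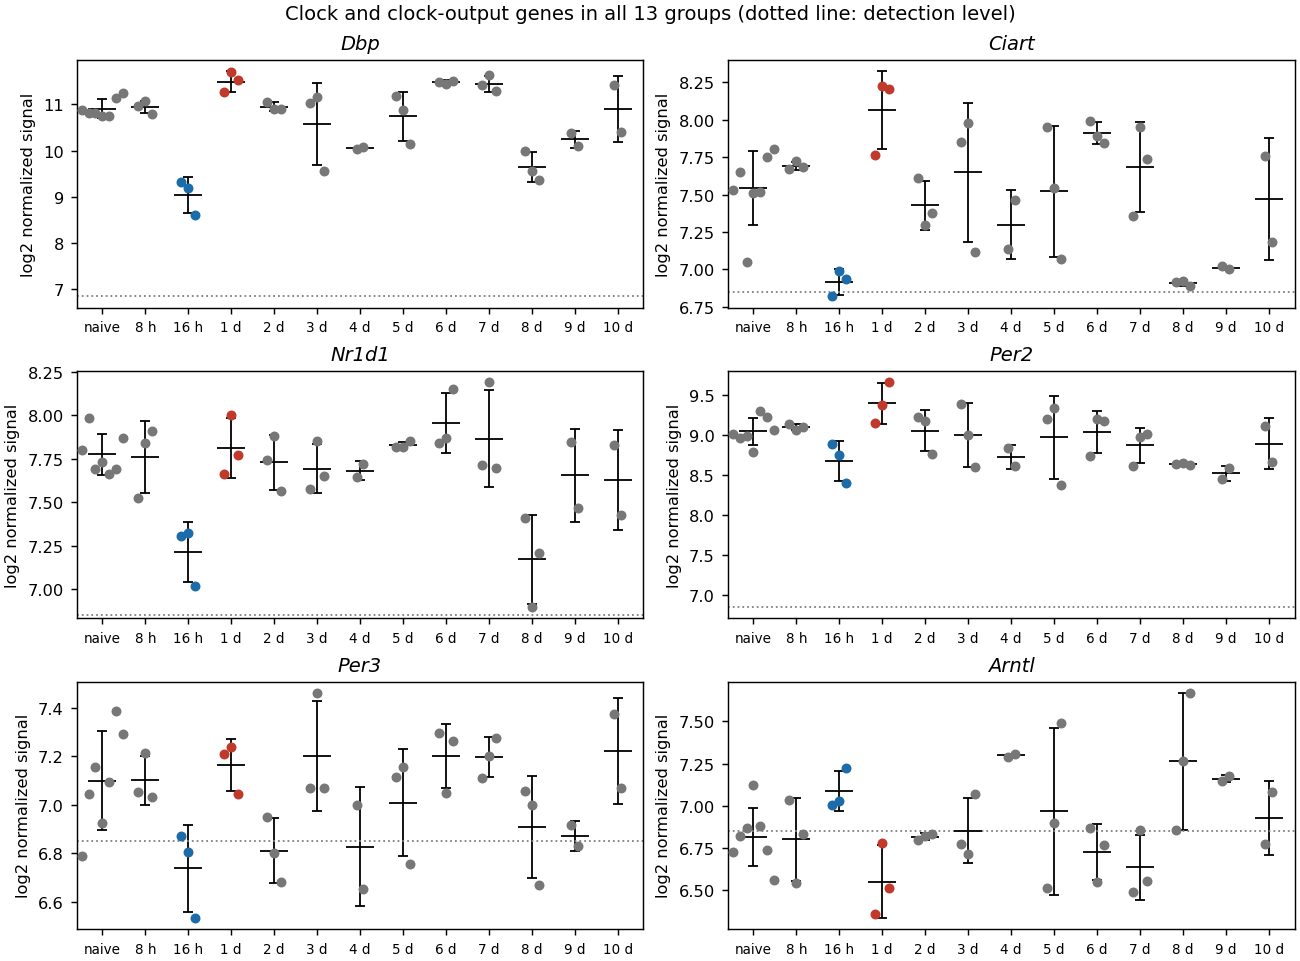
Log2 normalized signal of 6 clock and clock-output genes in the 13 groups; points are arrays, bars the mean ± SD, the dotted line the detection level, 16 h in blue and 1 day in red. Dbp, Ciart, Nr1d1, Per2 and Per3 sat low at 16 h and higher at 1 day, Arntl the other way, and Dbp was low again at 8 days.

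Of the 23 clock and clock-output genes on the array, 17 were measured, of which 2 rose and none fell, where 0.057% of all genes rose. Their median difference was 0.34, beside 0.00 for all genes, with 14 higher and 3 lower, where 5378 of all 10519 genes were higher. Every 1 day array was above every 16 h array for 5 of the 17 (5.27% of all genes), and below for 1 (4.7% of all genes). At an unadjusted p under 0.05, 9 were higher (3.8% of all genes) and 1 lower (4.07% of all genes). The list was chosen with earlier results of these data known, so its counts are a description.

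Among the repressors of the loop, Per2 read 8.88, 8.74 and 8.39 at 16 h and 9.15, 9.37 and 9.66 at 1 day. The groups did not overlap, and the difference of 0.72 ± 0.20 did not pass (adjusted p = 0.344). Nr1d1, which encodes the nuclear receptor REV-ERB alpha, a repressor of the BMAL1 gene, read 7.30, 7.32 and 7.02 against 7.66, 8.00 and 7.77, a difference of 0.60 ± 0.15 with an adjusted p of 0.207. Its relative Nr1d2 differed by 0.76 ± 0.35 (adjusted p = 0.609). Per3 was above the detection level on 1 of 3 arrays at 16 h (6.87, 6.81 and 6.53) and on 3 of 3 at 1 day (7.21, 7.24 and 7.04), and did not pass (adjusted p = 0.486). Per1 (0.17), Cry2 (-0.12) and Clock (-0.11) differed by less than their standard errors or about as much. Arntl, the gene of BMAL1, read 7.01, 7.03 and 7.22 at 16 h and lay below the detection level on all 3 arrays at 1 day (6.36, 6.78 and 6.51). It was the one clock gene with every 1 day array below every 16 h array, at least 1.18-fold higher at 16 h, and did not pass (adjusted p = 0.489).

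The promoters of the 2 clock genes that rose, and of Per3, are shown because the clock proteins act through short DNA motifs: CLOCK with BMAL1 binds the E-box CACGTG, and DBP binds the D-box TTATGTAA. The stretches are the 250 bases before the annotated start from RefSeq (GRCm38.p6), written along the gene's strand, with motif matches in capitals. Ciart lies on the minus strand at chr3:95882229-95882478, Dbp on the plus strand at chr7:45704997-45705246 and Per3 on the minus strand at chr4:151044666-151044915.
Ciart: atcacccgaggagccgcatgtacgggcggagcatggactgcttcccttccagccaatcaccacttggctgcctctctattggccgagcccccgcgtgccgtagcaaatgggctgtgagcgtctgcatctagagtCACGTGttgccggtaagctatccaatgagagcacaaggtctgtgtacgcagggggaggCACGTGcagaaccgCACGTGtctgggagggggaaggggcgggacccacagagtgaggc
Dbp: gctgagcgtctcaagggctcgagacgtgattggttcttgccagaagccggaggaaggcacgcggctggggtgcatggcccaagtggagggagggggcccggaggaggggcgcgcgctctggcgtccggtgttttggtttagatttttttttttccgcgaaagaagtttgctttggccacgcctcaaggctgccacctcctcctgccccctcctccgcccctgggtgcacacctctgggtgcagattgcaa
Per3: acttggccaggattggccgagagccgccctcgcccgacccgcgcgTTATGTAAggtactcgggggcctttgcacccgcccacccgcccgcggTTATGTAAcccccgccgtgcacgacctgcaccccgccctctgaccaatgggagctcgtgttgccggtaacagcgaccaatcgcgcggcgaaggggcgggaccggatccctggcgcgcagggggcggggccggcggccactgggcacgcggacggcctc
Ciart holds 3 E-boxes, which begin 116, 58 and 44 bases before the start, and Per3 holds 2 D-boxes, 205 and 158 bases before it. Neither motif is in the Dbp window, which says only that these letters are not in it. The E-box, the same on both strands, was in 1978 of 32851 promoters in the table (6.02%), and the D-box, searched on both strands, in 269 (0.819%). Of the 17 measured clock genes 14 had a promoter in the table, and 3 of them held an E-box (Ciart, Per1 and Tef) and 1 a D-box (Per3). The 14 genes had 22 promoters, so these counts of genes are unlike the shares, which are of promoters. Cckbr, outside the clock list, also held 1 E-box. Of the 2 clock genes that rose, 1 therefore held an E-box in this window, as did Per1, which differed by 0.17 ± 0.22.

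Genes of the injury programme made up the other recognisable group. Gal, the gene of the neuropeptide galanin, read 11.03, 11.01 and 11.26 at 16 h and 11.91, 12.58 and 12.30 at 1 day. The groups did not overlap, and 16 h lay within the range of the naive arrays, 10.58 to 11.32. Gal rose by 1.16 ± 0.16, or 2.24-fold (adjusted p = 0.000217), and went on to 13.54 ± 0.21 at 2 days. It passed in 19 of 20 alternatives, the exception being a fit on the 6 arrays alone (adjusted p = 0.381). In bulk ganglia, a change in the number of cells that carry an RNA and a change in RNA per cell cannot be told apart.

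Gpr151, an orphan receptor of sensory and habenular neurons, read 8.80, 8.75 and 8.32 at 16 h and 9.21, 9.80 and 9.63 at 1 day. The groups did not overlap, and both lay above the naive arrays, whose highest value was 7.48. Gpr151 rose by 0.93 ± 0.18 (adjusted p = 0.0252), as one stage of a climb from 7.25 ± 0.18 at 8 h to 11.08 ± 0.25 at 2 days. The call was lost in 10 of 20 alternatives, at an adjusted p of 0.0588 without 16 h replicate 2, 0.251 without 16 h replicate 3, 0.516 without 1 day replicate 2 and 0.219 without 1 day replicate 3, and at 0.647 with median scaling.

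Other secreted peptides and receptors were higher at 1 day without passing in the main fit. Npy, the gene of neuropeptide Y, read 7.84, 7.74 and 7.20 at 16 h and 8.41, 8.77 and 9.49 at 1 day, with no overlap and the widest spread at 1 day. The difference was 1.29 ± 0.29 with an adjusted p of 0.0873. Cckbr, the cholecystokinin B receptor gene, read 7.76, 7.75 and 6.68 against 8.36, 8.84 and 8.35. Its 16 h group was split, with replicate 3 below detection, and the difference of 1.12 ± 0.27 had an adjusted p of 0.165. Adcyap1, the gene of the peptide PACAP, differed by 0.55 ± 0.14 (adjusted p = 0.207), from 11.77 ± 0.34 to 12.33 ± 0.19 (n = 3 each), without overlap.

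Genes of axon growth and of signals to other cells were also higher at 1 day without passing in the main fit. Tubb6, a beta tubulin gene, read 9.11, 9.02 and 9.69 against 9.65, 10.84 and 10.84, so that 1 day replicate 1 lay among the 16 h arrays, and the difference of 1.17 ± 0.32 had an adjusted p of 0.34. Sprr1a, whose protein promotes axon outgrowth, differed by 0.81 ± 0.26 (adjusted p = 0.446) and stood at 7.67 ± 0.03 and 8.48 ± 0.27. Csf1, a growth factor of macrophages and microglia, differed by 0.57 ± 0.19 (adjusted p = 0.446). In both genes every 1 day array was above every 16 h array.

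A further set of injury genes was above naive by 16 h and showed small measured differences from 16 h to 1 day. Atf3, the transcription factor most used as a mark of axotomised neurons, read 11.11, 10.85 and 10.75 at 16 h and 10.69, 11.06 and 11.13 at 1 day, overlapping groups whose difference was 0.06 with a 95% interval from -0.32 to 0.44. Both lay above the naive mean by 3.64 and 3.70. Gadd45a, a growth-arrest and DNA-damage gene, averaged 12.37 ± 0.30 and 12.52 ± 0.03, a difference of 0.15 (interval -0.29 to 0.59). Jun (0.19), Socs3 (0.16), Bdnf (0.05) and Vgf (0.08) also had overlapping groups, and each of them was higher than naive at both times (adjusted p from 4.28e-07 to 0.000726), where 0.713% of all genes at 16 h and 1.65% at 1 day differed from naive. Bdnf probes disagreed, since a dimmer one differed by 0.62.

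**Figure D4:**
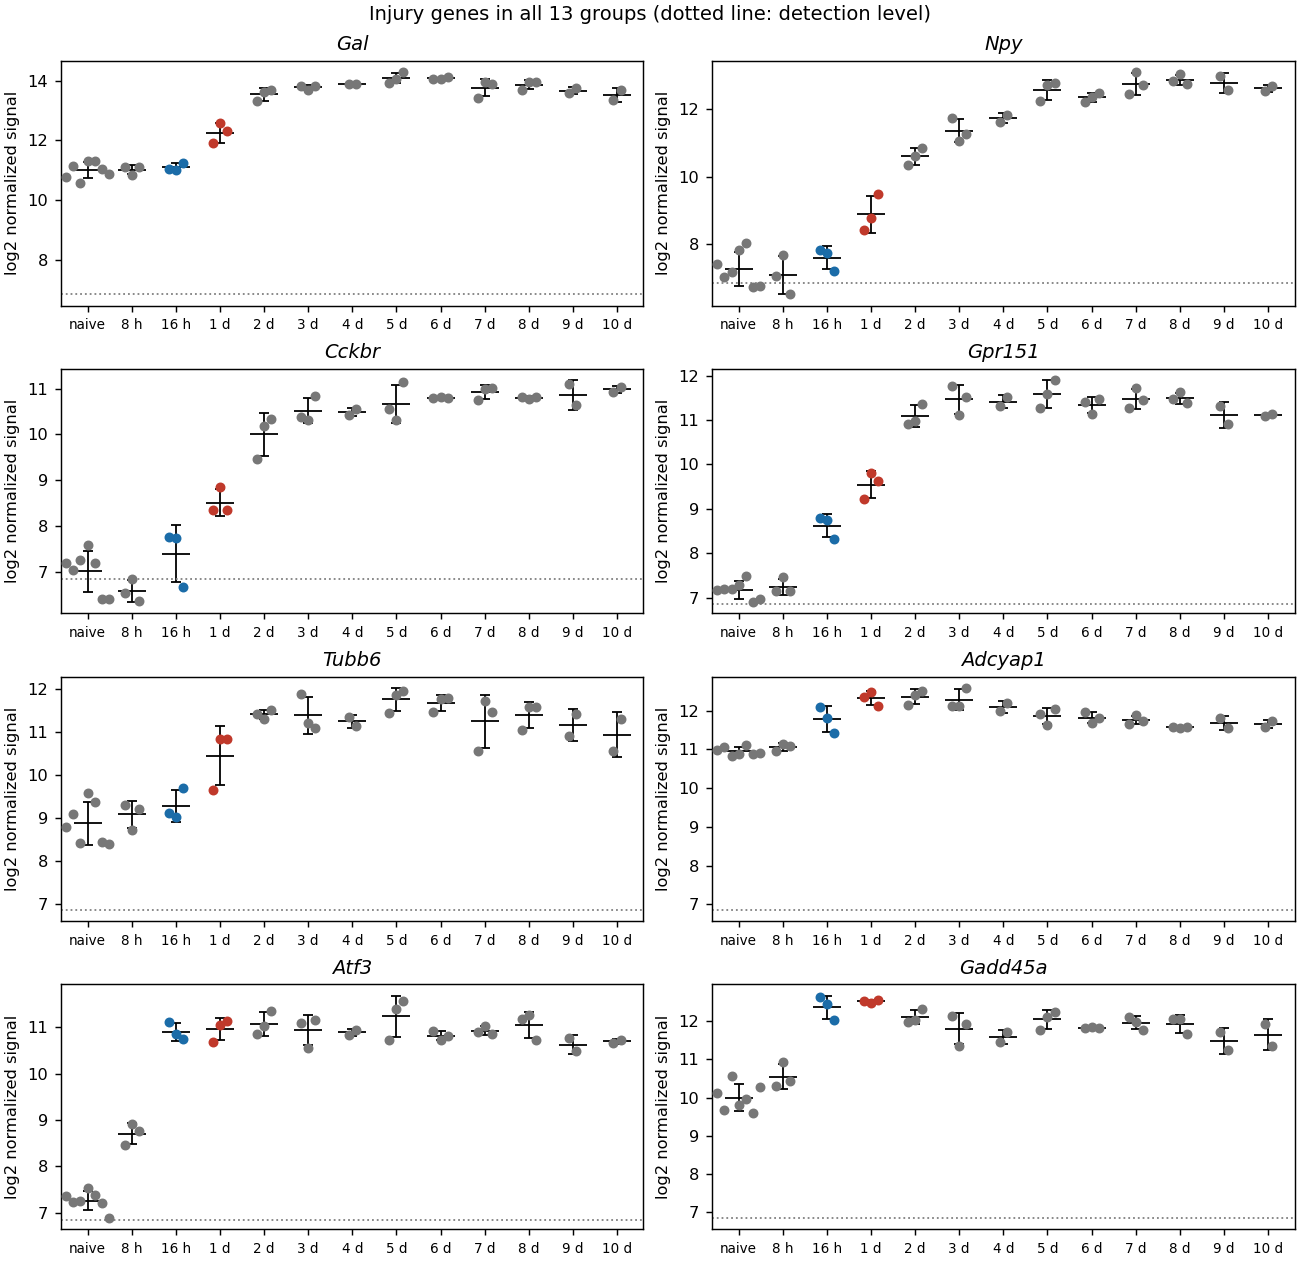
Log2 normalized signal of 8 injury genes in the 13 groups, drawn as in the plot of clock genes. Gal averaged 11.10 at 16 h, within the naive range, and 12.26 at 1 day, Gpr151 was between its naive and 2 day levels at both times, and Atf3 averaged 10.90 and 10.96.

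Of 33 nerve-injury and regeneration genes on the array, 28 were measured; 2 rose (Gal and Gpr151) and none fell, beside 0.057% of all genes. The median difference was 0.25, with 26 higher and 2 lower, where 5378 of all 10519 genes were higher. This list too was chosen with earlier results of these data known, so its counts are a description. Every 1 day array lay above every 16 h array for 7 of the 28, beside 5.27% of all genes. In the step before, from 8 h to 16 h, which shares the 16 h arrays, the median of the same genes was 0.46, and in the step after, which shares the 1 day arrays, it was 0.18. Their highest difference was that of Npy and their lowest that of Stat3, at -0.17.

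Slc6a6, which encodes the transporter that takes up taurine, read 10.34, 10.09 and 10.30 at 16 h and 10.83, 11.23 and 11.32 at 1 day. The groups did not overlap, and like Dbp it had its lowest mean of the 13 groups at 16 h and its highest at 1 day, though the naive arrays, 10.31 to 11.08, overlapped with both groups. It rose by 0.88 ± 0.17 (adjusted p = 0.0252). The call was the least stable of the 6, lost in 11 of 20 alternatives: without any single array at either time except 1 day replicate 1 (adjusted p from 0.0543 to 0.373), and at 0.0592 with muscle markers as a covariate.

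Tmem43 read 10.23, 10.23 and 10.00 at 16 h and 10.73, 10.82 and 10.76 at 1 day, with no overlap between the groups. It rose by 0.62 ± 0.10 (adjusted p = 0.00288) and averaged 10.89 ± 0.12 at 2 days. Its probes disagreed: the other one, at a like brightness, differed by 0.17, and the mean of both by 0.39 (adjusted p = 0.108). Without 16 h replicate 3 the adjusted p was 0.0738, and with median scaling 0.917.

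The genes next in line on the higher side were Msh6, Tmem88b, Npy, Gpr19 and Cckbr, none of which passed in the main fit. Msh6, a DNA mismatch repair gene, read 10.46, 10.07 and 10.20 against 10.57, 11.11 and 10.98, a difference of 0.65 ± 0.14 with an adjusted p of 0.0791. Tmem88b was below detection on all 3 arrays at 16 h and above it on all 3 at 1 day, at least 1.09-fold higher (adjusted p = 0.0807). Gpr19, an orphan receptor gene, differed by 0.52 ± 0.12 (adjusted p = 0.156), and like the others had no overlap between groups.

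On the lower side the 5 closest genes were Bhlha9, Ttc4, Ret, Sgsm1 and Lrrc59, and none passed in the main fit. Ret, the signalling receptor of the GDNF family of neurotrophic factors, read 12.11, 11.97 and 12.08 at 16 h and 11.65, 11.27 and 11.62 at 1 day. Every 1 day array was below every 16 h array, and the difference was -0.54 ± 0.12 with an adjusted p of 0.0873, while a dimmer Ret probe differed by -0.19. Ttc4, a co-chaperone gene, differed by -0.52 (adjusted p = 0.0832), Bhlha9, a transcription factor gene, by -0.55 (adjusted p = 0.0807), Lrrc59 by -0.52 (adjusted p = 0.263) and Sgsm1, the one of the 5 whose groups overlapped, by -0.60 (adjusted p = 0.207). All 5 had their highest mean of the 13 groups at 16 h, and Ttc4 and Sgsm1 also their lowest at 1 day. The 5 were picked for being lower at 1 day on these same arrays, so the choice itself favours such ranks.

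The step differed from the neighbouring steps in a handful of genes. The slope from 16 h to 1 day was set against the slope from 8 h to 16 h, an interval of the same length, and the difference passed for 7 of 10519 genes (0.0665%). The count was 1 without 16 h replicate 1, 3 without 16 h replicate 2 or 3, and 11 without 1 day replicate 1. A slope here is the log2 difference over a step, not divided by hours. A gene at an extreme at 16 h enters both slopes, since they share the 16 h arrays. Dbp (4.35), Ciart (1.92) and Slc6a6 (1.56) had slopes that turned upward at 16 h, with adjusted p-values of 2.45e-06, 0.00967 and 0.0172. For Dbp the slope before was -1.90 (adjusted p = 0.00013), for Ciart -0.78 (adjusted p = 0.0799) and for Slc6a6 -0.67 (adjusted p = 0.0758).

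In the other 4 genes the slope after 16 h was lower than that before it, and only in Ret was it negative. Atf3 had a slope of 2.20 before 16 h and 0.06 after, a difference of -2.14 (adjusted p = 0.000869). Flrt3, a cell adhesion gene of the injury list, went from 1.70 to 0.26 (difference -1.45, adjusted p = 0.00832) and the kinesin gene Kif22 from 1.36 to 0.06 (difference -1.30, adjusted p = 0.00967). Ret went from 0.61, itself past the threshold (adjusted p = 0.0101), to -0.54 (difference -1.15, adjusted p = 0.00967). With the mean of its probes the Ret difference was -0.78 (adjusted p = 0.0983).

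Against the step from 1 day to 2 days, which is longer and shares the 1 day arrays, the difference passed for 2 genes (0.019%). The steps were not divided by hours, so a steady rise per hour would also give a difference here. None passed without 1 day replicate 2 or 3 (232 and 336 at an unadjusted p under 0.05), 1 without 16 h replicate 2 or 3 or 2 day replicate 2 or 3, and 4 without 2 day replicate 1. Dbp changed by 2.45 in the step to 1 day and by -0.54 in the step to 2 days (difference -3.00, adjusted p = 0.00597). Lipn, a lipase gene, lay below detection on all 6 arrays at 16 h and 1 day and read 7.58 to 7.98 at 2 days, at least 1.92-fold higher than at 1 day. The Lipn step was larger after 1 day (adjusted p = 0.0409), with a size that cannot be given since both earlier groups are below detection. The Lipn call was lost in 15 of 20 alternatives, among them no background correction (adjusted p = 0.0889), neqc (0.999) and median scaling (0.708). Ciart turned in the same direction as Dbp without passing (difference -1.78, adjusted p = 0.0529).

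Beyond the clock and injury genes, the lists of other pathways held no gene past the threshold except Gal, which also stands among 18 measured neuropeptide and granin genes (median 0.10). Of all genes 0.057% passed. Genes that answer glucocorticoids had a median difference of 0.12 over 15, with 9 higher and 6 lower. Every 1 day array was above every 16 h array for 3 of them (5.27% of all genes): Mt2, a metallothionein (0.49 ± 0.19, adjusted p = 0.541), Fkbp5, a co-chaperone of the glucocorticoid receptor (0.48 ± 0.19, adjusted p = 0.551), and the kinase Sgk1 (0.41, adjusted p = 0.632). It was below for 1 (4.7% of all genes), Pdk4, a kinase that inhibits pyruvate dehydrogenase (-0.46 ± 0.28, adjusted p = 0.686). Fkbp5 had its lowest mean of the 13 groups at 16 h, 8.70 ± 0.17, and its highest at 8 h, 9.44. Immediate-early genes had a median of 0.01 over 13. Fos read 8.65, 8.28 and 9.73 at 16 h and 8.55, 9.27 and 9.10 at 1 day, so that 16 h replicate 3 was the highest of the 6 arrays, and its difference of 0.08 changed sign between alternatives.

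Cholesterol synthesis genes were the list with the lowest median, -0.17 over 17, with 14 lower, 4 of them at an unadjusted p under 0.05 (4.07% of all genes). Mvd, an enzyme of the mevalonate pathway, read 10.44, 10.48 and 10.15 against 10.15, 9.77 and 9.61. Its difference was -0.51 ± 0.16 (adjusted p = 0.446), and Dhcr7 (-0.46) and Cyp51 (-0.43) also fell short of the threshold. Calr, the gene of the endoplasmic reticulum chaperone calreticulin, had the lowest difference among the lists, -0.76 ± 0.24 (adjusted p = 0.445), at 9.83 ± 0.16 and 9.07 ± 0.33.

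Ion channels of sensory neurons were near the level of all genes. The median was -0.05 over 32 potassium channel genes, -0.10 over 8 sodium channel genes, -0.05 over 25 transduction channel genes and 0.00 over 11 calcium channel genes. The potassium list held the widest range: Kcnmb4, an auxiliary subunit of the large-conductance calcium-activated channel, read 9.44, 9.39 and 9.27 against 9.78, 10.42 and 10.12 (0.74 ± 0.18, adjusted p = 0.167), while Kcnd1, a subunit of A-type channels, differed by -0.52 ± 0.18 (adjusted p = 0.486). Scn1a and Scn4b, sodium channel subunits of large sensory neurons, differed by -0.38 and -0.32 (adjusted p = 0.625 and 0.541).

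Inflammatory and glial genes showed no passing member. The 24 macrophage and microglia markers had a median of -0.02, and their summed signal was 20662, 20759 and 26540 at 16 h and 20079, 24476 and 23480 at 1 day, overlapping ranges. Lgals3, the gene of galectin-3, was the marker with the smallest p, at 11.18, 11.25 and 11.27 against 11.53, 11.99 and 11.69 (0.50 ± 0.12, adjusted p = 0.195), and it is also made by other cells, sensory neurons among them. Cytokine and chemokine genes had a median of -0.02 over 23, from -0.66 for Cxcl10 (adjusted p = 0.59) to 0.57 for Csf1. Interferon-stimulated genes had a median of 0.00 over 19, satellite glia markers 0.00 over 12 and myelin genes 0.09 over 15.

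**Figure D5:**
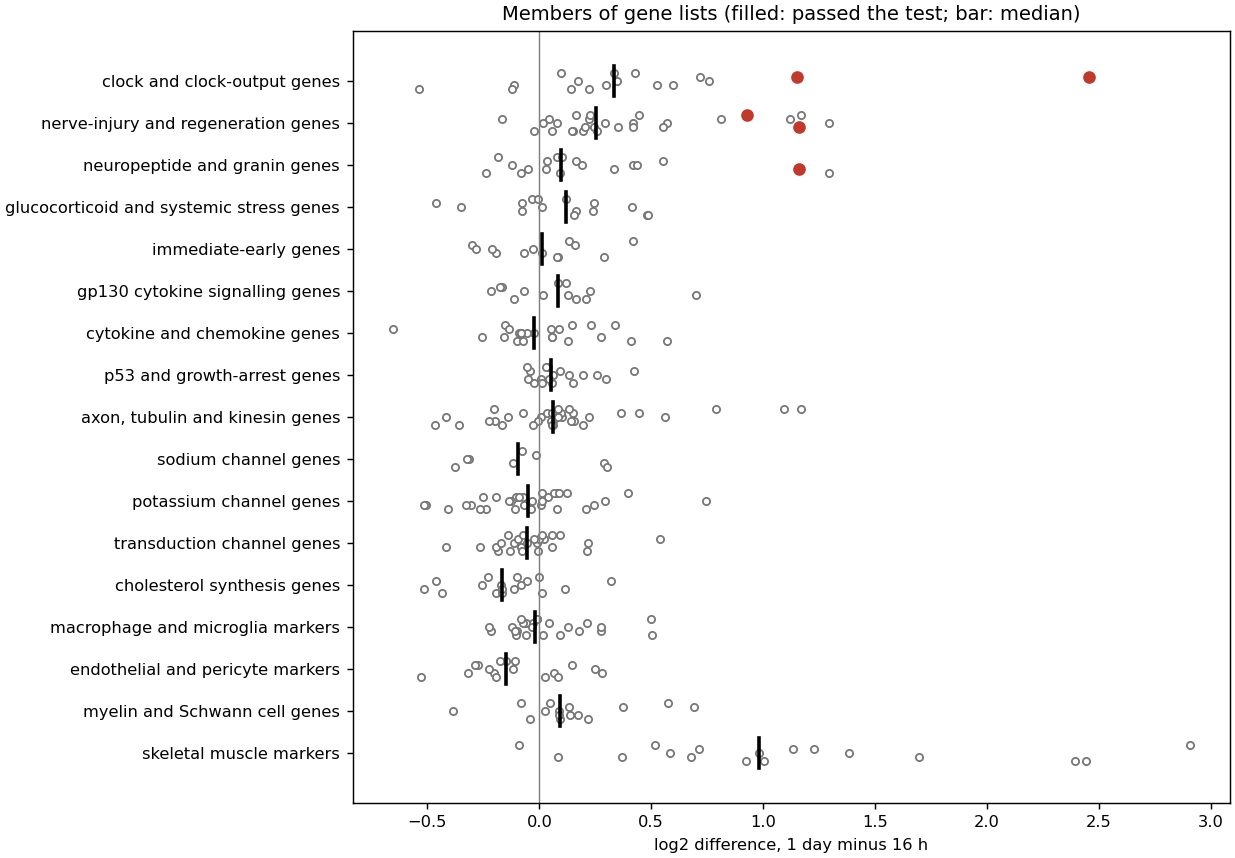
Log2 difference, 1 day minus 16 h, of each measured member of 17 gene lists; filled points passed the test, open points did not, and bars are medians. The filled points are Dbp, Ciart, Gal (in 2 lists) and Gpr151, and the list shifted farthest, skeletal muscle with a median of 0.98, held none.

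Skeletal muscle markers had the highest median of any list, 0.98 over 17, with 16 higher and none past the threshold. Myl1, a myosin light chain gene, read 10.95, 7.24 and 7.13 at 16 h and 11.96, 11.99 and 10.09 at 1 day, and its difference of 2.91 ± 1.51 was larger than that of Dbp with an adjusted p of 0.646. The high arrays were 16 h replicate 1 and all 3 at 1 day. With the mean of these markers as a covariate, 5 genes rose and all 5 were among the 6, Slc6a6 being the one lost.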

How the data were processed

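Per the labels, Trizol-extracted RNA was turned into biotin-labelled cRNA for the bead arrays. The raw table the authors deposited gives, per the file headers, 40 columns of signal intensity and as many of detection p-values. Their other deposited table is on a log2 scale, never more than 0.038 from quantile-normalized signals, and was used as an alternative. The deposited detection p-values follow the same array's signal on 3 arrays only, so the detection level (6.85; 6.82 to 6.88) comes from those.

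Background was corrected by normexp with an offset of 50, before quantile normalization and log2. Of 25697 probes, 15462 were above detection on at least 3 arrays. Genes came from the platform's probe table (23978 probes with 1 gene, 1719 with no gene or several), with 23962 probes matched to RefSeq by Entrez number, and the brightest kept probe stood for a gene (10519 genes). limma 3.58.1 in R 4.3.3 fitted 1 mean per group over all 40 arrays with a variance trend (27 residual degrees of freedom). Contrasts were 1 day minus 16 h and its differences from the neighbouring steps, with Benjamini-Hochberg adjustment over all genes and a threshold of 0.05. No slide or scan date was given. Precision is limited by 3 arrays a group. The code was tested on simulated data.

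A lower bound on a fold ("at least") raises arrays below the detection level to it. Named genes were all that passed, the 5 next by p in each direction, for each list those that passed and up to 3 more by p, genes listed by name (Ccl2 of these had no kept probe), and up to 8 for each difference between steps. Values of further list members are also given to account for the 2 main lists. Groups, lists and genes were chosen with earlier results of these data known. Alternatives changed the background correction, scaling, filter, probe rule, arrays fitted, variance model, covariates and single arrays.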

Additional observations from a re-analysis of the deposited data

Results flagged for a closer look

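The slope from 16 h to 1 day differed from the slope from 8 h to 16 h by a test of the difference itself (limma, adjusted p under 0.05) in 7 genes. On the log2 scale the difference was 4.35 for Dbp, 1.92 for Ciart and 1.56 for Slc6a6, and it was -2.14 for Atf3, -1.45 for Flrt3, -1.3 for Kif22 and -1.15 for Ret. Dbp passed in all 22 alternatives. Of 22, the call was lost in 10 for Slc6a6, 6 each for Kif22 and Ret, 5 for Flrt3 and 1 for Atf3. For Ciart it was lost in 3 of 21.

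Against the longer step from 1 day to 2 days, with neither step divided by hours, the difference, later minus earlier, was -3 for Dbp and 1.25 for Lipn. Lipn was below detection on all arrays at 16 h and 1 day, so that its fitted 1.25 is not a measured size, and its call was lost in 15 of 20 alternatives.

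Among the 7 naive arrays, the gap of the lowest Ciart value (7.05) to the next was 0.61 of the whole range, above the critical 0.568 for 7 arrays. It was the one such gap among 12 genes examined in the naive group. Chance gives about 1 in 20 (0.05) for each gene, so 1 among 12 is not unusual. Naive arrays are not in the contrast.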

How the results depend on the processing

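The count of genes that changed from 16 h to 1 day was 4 to 6, all higher, with no background correction, neqc, the authors' log2 values, other probe filters or rules, a fit on 4 groups, the replicate block (4, as without the block in the same 9 groups) and a muscle covariate. It was 3 with median scaling, 1 with the 6 arrays alone, 1611 with robust variances and array weights (839 higher, 772 lower), and 14, all higher, with a component of unchanged genes as covariate, an alternative chosen after seeing the data. With the component, Tubb6, Tmem88b, Adcyap1, Cckbr, Msh6 and Nr1d1 were among the genes gained (limma, adjusted p from 0.021 to 0.047). Leaving out single arrays gave 2 to 15. The count for the difference from the step before (7) was 3 with median scaling, 2855 with robust variances and array weights, 3 with the replicate block (6 without it in the same groups), 14 with the component, and 1 to 11 without single arrays. The count for the difference from the step after (2) was 1 with no background correction, the authors' log2 values, no filter, detection on all 6 arrays or the replicate block, 0 in the same 9 groups without the block (305 at an unadjusted p under 0.05), 4 with neqc or the mean of probes, 5 with the component, 22 with robust variances and array weights, and 0 to 4 without single arrays. The causes of these shifts were not tested. The labels do not state what a replicate number marks, and the main fit did not pair the arrays. After group means were taken off, same-numbered arrays at 16 h and 1 day correlated at 0.56, -0.17 and 0.61. Of 108 such pairs in the series 38 were over 0.1. These values do not settle whether the numbers pair samples. The calls of Gpr151 and Slc6a6 were lost in those 9 groups with the block and without it. Differences with the 6 arrays alone could be had for the step only.

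Over named genes and alternatives, 853 combinations kept direction and side of the threshold, 31 lost and 30 gained a call, and 20 turned sign. Without single arrays Atf3 ran from -0.0285 to 0.19, Gadd45a from -0.0162 to 0.28, Jun from -0.15 to 0.37, Bdnf from -0.0307 to 0.18, Vgf from -0.0785 to 0.16, Per1 from -0.07 to 0.38, Ccnd1 from -0.029 to 0.16, Fos from -0.22 to 0.50, Nfil3 from -0.0713 to 0.40 and Csnk1d from -0.10 to 0.28. With robust variances and array weights Jun was -0.0356 and Csnk1d -0.0763, with the component Bdnf was -0.0129 and Fos -0.14, with the mean of probes Ccnd1 was -0.0875, and with the muscle covariate Usp2 was -0.0275. Ciart, Per3 and Arntl lie near the detection level, where background limits how well a difference can be measured.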

Other observations

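Several gene groups not described above had no member past the threshold. Genes of the unfolded protein response and Atf4 had a median difference of 0.10 over 26, heat shock and chaperone genes -0.02 over 19, and p53 and growth-arrest genes 0.05 over 18 with 14 higher. Among the last, Cdkn1a, the gene of the cell cycle inhibitor p21, differed by 0.42. Endothelial and pericyte markers had a median of -0.15 over 17 with 11 lower, and their summed signal was 8890 to 11004 at 16 h and 9496 to 10479 at 1 day, overlapping ranges. Extracellular matrix and fibroblast genes had a median of -0.08 over 18, with Col6a2, a collagen VI chain, at -0.65 (limma, adjusted p = 0.399). Oxidative phosphorylation genes (0.05 over 33), ribosomal protein genes (-0.03 over 24) and synaptic release genes (-0.02 over 20) lay near the median of all genes.

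Of 67 genes whose order was followed over the 13 groups, 16 had their highest mean at 1 day. Besides Dbp, Ciart, Per1, Per2, Rora, Csnk1d and Slc6a6, these were Msh6, Gadd45a, Socs3, Jun, Bdnf, Klf6, Steap1, Zfp593 and Plppr5. The ranks rest on the brightest probe of each gene. From 16 h to 1 day the other kept probes of Csnk1d differed by 0.08, 0.02, -0.05 and -0.16, and that of Per1 by -0.01. Those of Per2 and Ciart differed by 0.83 and 1.02. Msh6 differed by 0.84 in the step from 8 h to 16 h (adjusted p = 0.000851), by 0.65 in the step to 1 day and by -0.52 in the step to 2 days. The 67 include genes chosen for their values, so the count is a description.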
